A study of Mus musculus with 8 samples.

Results

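The endocardial cushion and neuregulin genes are 10 genes, *Nrg1*, *Erbb2*, *Erbb3*, *Erbb4*, *Has2*, *Vcan*, *Hapln1*, *Nfatc1*, *Twist1* and *Postn*, taken by symbol from a table of 24385 features of mouse embryonic heart RNA. All 10 were found, each as 1 entry. Testing required an average level, taken across all 8 libraries, of 1 FPKM or more, and 6 of the 10 reached it, namely *Erbb2*, *Has2*, *Vcan*, *Hapln1*, *Nfatc1* and *Postn*. FPKM counts sequenced fragments per kilobase of transcript, relative to library depth. *Nrg1*, *Erbb3*, *Erbb4* and *Twist1* lay under the limit and are given as levels. In an alternative fit without this limit, none of the 4 passed in any of their 4 comparisons, at adjusted p of 0.228 or more by limma.

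Heart tubes of C57BL/6 embryos were collected on embryonic day 8.5 (E8.5) and 9.5 (E9.5), and 2 libraries were made for each stage and genotype. Libraries labelled wild type (WT) came, per the study's methods, from Dgcr8 loxP/loxP embryos that also carried the Rosa26 mT/mG reporter and no Cre. The conditional knockout (cKO) libraries, labelled Mesp1Cre/+ and Dgcr8-/-, came from embryos with the same floxed alleles and reporter plus a Cre recombinase driven by *Mesp1*, a gene of early mesoderm progenitors. Cre and loss of *Dgcr8* cannot be told apart in this design, and *Dgcr8*, which encodes a subunit of the complex that cuts primary microRNA transcripts, is removed only in progeny of *Mesp1* cells. How many hearts went into a library is not given in the sources used here.

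The valves and septa of the heart begin as endocardial cushions, swellings of a hyaluronan-rich matrix called cardiac jelly that myocardium secretes between itself and the endocardium. Endocardial cells then lose their contacts, invade this matrix and become mesenchyme. Neuregulin from the endocardium signals to ERBB receptors on neighbouring cells, which drives trabeculation of the myocardium and takes part in cushion formation.

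MicroRNAs (miRNAs) pair with messenger RNAs mainly through their seed, bases 2 to 8 from the 5′ end. The study names more miRNAs than the 9 chosen here, and 5 of these 9 were matched in the RefSeq table for GRCm38.p6. The others, *mmu-miR-30d-5p*, *mmu-miR-1a-3p*, *mmu-miR-133a-3p* and *mmu-miR-378a-3p*, were not found in it. No words were therefore searched for *mmu-miR-1a-3p*, the most abundant in the study's heart profile, or for *mmu-miR-133a-3p* and *mmu-miR-378a-3p*. Further miRNAs that the study lists were not searched either. The mature sequences are shown 5′ to 3′ with the seed in capitals because they fix the 4 words searched in the 3′ untranslated regions (UTRs) of the 10 genes, and the members of the miR-30 family shown share 1 seed.
mmu-miR-541-5p: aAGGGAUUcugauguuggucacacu
mmu-miR-126a-3p: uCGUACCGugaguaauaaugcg
mmu-miR-26a-5p: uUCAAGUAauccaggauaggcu
mmu-miR-30a-5p: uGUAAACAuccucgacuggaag
mmu-miR-30c-5p: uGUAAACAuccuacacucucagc

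The DNA words that pair with these seeds are AATCCCT for miR-541-5p, CGGTACG for miR-126a-3p, TACTTGA for miR-26a-5p and TGTTTAC for the miR-30 family. They were sought on the transcript strand of 1 annotated 3′ UTR per gene (GENCODE vM1 on NCBIM37). Across the 10 UTRs there were 6 matches, in *Nrg1*, *Erbb4*, *Has2* and *Hapln1*. Each is shown on its transcript strand with the matched word in capitals, so that the sites can be set beside the levels of their genes.
Nrg1, miR-541-5p, chr8:32931284-32931290, minus strand: caattatgaAATCCCTagaagtcat
Erbb4, miR-26a-5p, chr1:68083663-68083669, minus strand: tttaatatgTACTTGAtttcagttg
Erbb4, miR-30, chr1:68081530-68081536, minus strand: gagactggtTGTTTACttcatgaaa
Has2, miR-30, chr15:56497947-56497953, minus strand: tgttagtgaTGTTTACatgggcgaa
Hapln1, miR-541-5p, chr13:89750165-89750171, plus strand: taattcagaAATCCCTttcgagact
Hapln1, miR-26a-5p, chr13:89749677-89749683, plus strand: ggaagatcaTACTTGAacaatcatt

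Such words are common in long UTRs. Among 3′ UTRs of like length, the miR-30 word was found in 19.7% of 2989 for *Has2* and in 54.8% of 168 for *Erbb4*, and the miR-26a-5p word in 44.6% for *Erbb4* and 24.0% of 1590 for *Hapln1*. The miR-541-5p word was present in 20.8% of UTRs like that of *Hapln1* and in 3.17% of 2053 like that of *Nrg1*. A match describes letters only. The UTRs of *Erbb2*, *Erbb3*, *Vcan*, *Nfatc1*, *Twist1* and *Postn* held none of these words, and words of other miRNAs were not sought.

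The deletion was checked on *Dgcr8* itself. It stood at 7.10 and 8.60 FPKM in the WT and at 1.64 and 4.67 in the cKO libraries of E8.5. At E9.5 the WT libraries had 3.49 and 3.23 FPKM and the cKO libraries 1.15 and 1.77. Every cKO library was below both WT libraries of its stage, as held for 40.1% of tested genes at E8.5 and 31.1% at E9.5. By q-PCR the study found no significant fall of *Dgcr8* at E8.5, and it reports a marked decrease at E9.5. At the level of a whole gene, cells outside the *Mesp1* lineage and the undeleted part of the transcript cannot be told apart. All 10 cardiomyocyte markers were above 1 FPKM in each of the 8 libraries. Loci under 300 bp held between 15.7% and 54.5% of the summed FPKM, with the highest share in E9.5 cKO replicate 1. At E8.5 the share was 15.7% and 16.2% in WT and 38.6% and 50.5% in cKO libraries. The part of this share in the genotype differences was not tested. The median tested gene had 7.62 to 9.90 FPKM at E8.5 against 3.85 to 4.50 at E9.5. Read totals were not used here, and depth was estimated from the FPKM steps of single-transcript genes at 12900000 to 18800000 fragments a library. Markers of neighbouring tissues varied between libraries, with summed FPKM from 164 to 5482 for 6 decidual genes (highest in E8.5 cKO replicate 2), from 756 to 6860 for 6 yolk sac endoderm genes and from 1.85 to 64.3 for 7 macrophage genes (highest in E8.5 WT replicate 1), and their part in the levels below was not tested. In whole-heart RNA, fewer cells of a type and less RNA per cell cannot be told apart.

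The 10 genes spanned a wide range of levels, and their order changed between stages. In E8.5 WT hearts *Has2* was highest with a mean of 32.7 FPKM, followed by *Vcan* with 18.8, *Hapln1* with 18.7, *Erbb2* with 8.54 and *Nfatc1* with 2.17. The libraries of *Vcan* and *Hapln1* interleaved, so these neighbours in the order did not differ beyond their spread, whereas both *Has2* libraries were above all *Vcan* and *Hapln1* libraries. Below *Nfatc1*, the means of *Postn*, *Nrg1*, *Erbb3*, *Twist1* and *Erbb4* ran from 0.987 down to 0.341 FPKM, and of these neighbours only *Twist1* and *Erbb4* had libraries that did not overlap. In E8.5 cKO hearts the order was *Vcan* with 21.2, *Has2* with 16.2, *Hapln1* with 13.3, *Erbb2* with 6.24 and *Nfatc1* with 1.84 FPKM, and among these neighbours *Has2* and *Hapln1* overlapped. At E9.5 *Has2* had moved to the fourth place in WT with 2.11 FPKM and to the fifth in cKO hearts with 1.03. *Hapln1*, *Vcan* and *Erbb2* were then the 3 highest in WT, with overlapping libraries, at 13.2, 8.85 and 6.10 FPKM. In E9.5 cKO hearts the highest 3 were *Vcan*, *Erbb2* and *Hapln1*, with 23.4, 9.98 and 6.76.

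**Figure D1:**
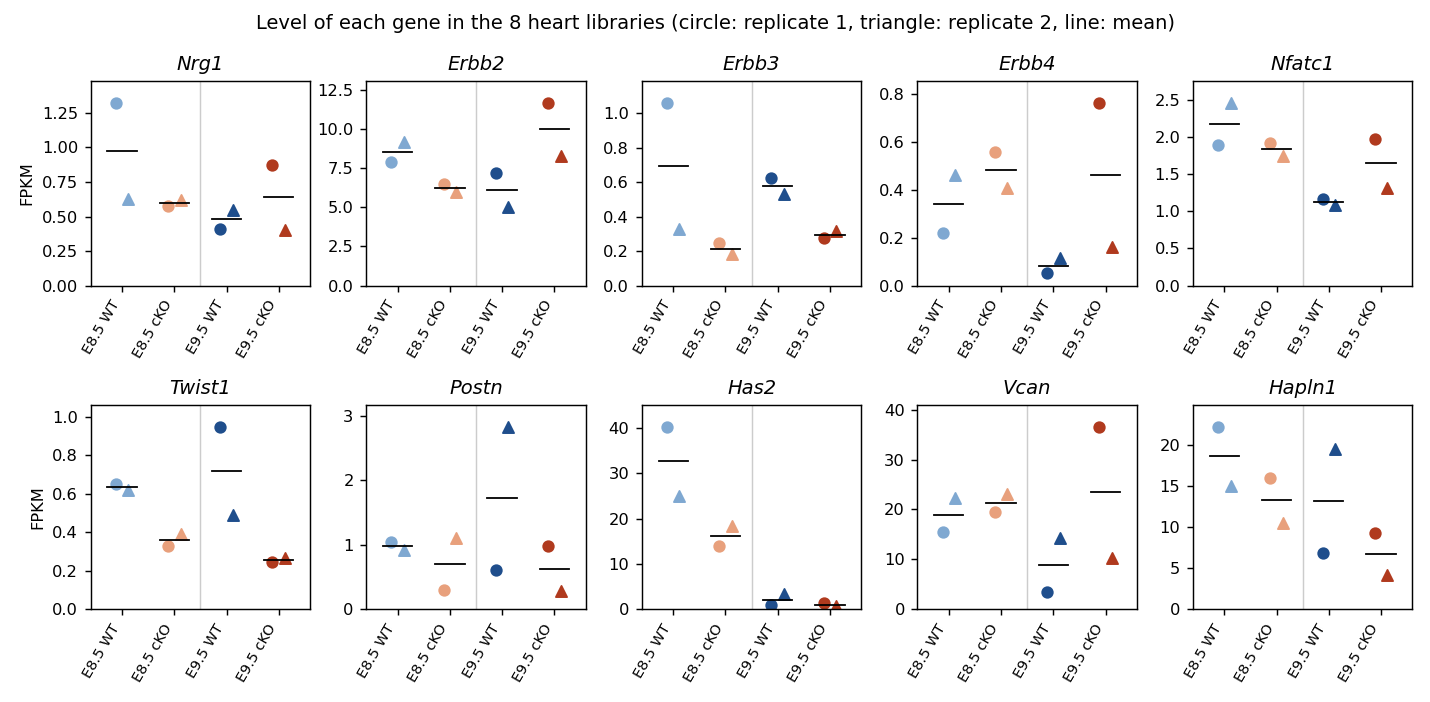
FPKM of each of the 10 genes in the 8 libraries (vertical axes, FPKM, each starting at 0), by stage and genotype, with circles for replicate 1, triangles for replicate 2 and a line at the mean. *Has2* fell from 40.3 and 25.1 FPKM in E8.5 WT to 0.940 and 3.28 in E9.5 WT hearts, while the E9.5 replicates of *Vcan*, *Hapln1* and *Postn* lay far apart.

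Hyaluronan synthase 2, encoded by *Has2*, makes the hyaluronan that fills the cardiac jelly. The gene (GRCm38 chr15:56665627-56694546) was at 40.3 and 25.1 FPKM in WT and 13.9 and 18.4 in cKO libraries at E8.5, then 0.940 and 3.28 in WT and 1.35 and 0.703 in cKO libraries at E9.5. All 4 E8.5 libraries were above all 4 E9.5 libraries. Markers of some other tissues were lower at E9.5 and those of others were not, and their part in the fall was not tested. The decidual gene *Prl8a2* had 449 and 1141 FPKM in WT and 9.95 and 5104 in cKO libraries at E8.5, against 0.746 to 5.09 at E9.5. *Igfbp4* of the same list stood at 138 and 165 in WT and 153 and 101 in cKO libraries at E8.5, then 326 and 258 in WT and 158 and 163 in cKO libraries at E9.5. The macrophage sum was 64.3 and 14.4 FPKM in WT and 3.42 and 32.5 in cKO libraries at E8.5, against 1.85 to 4.74 at E9.5. E8.5 cKO replicate 1 was the lowest library of its stage in *Prl8a2*, in the macrophage sum and in *Has2*. E8.5 cKO replicate 2 was the highest of its stage in *Prl8a2*, with a macrophage sum between those of the WT libraries. Its *Has2* was below both WT libraries. The yolk sac endoderm sum was 756 and 2619 FPKM in WT at E8.5 and 6563 and 4966 at E9.5. The mean of *Has2* dropped from 32.7 ± 10.8 to 2.11 ± 1.65 FPKM in WT hearts (SD, n = 2), 15.5-fold, and from 16.2 ± 3.18 to 1.03 ± 0.456 in cKO hearts, 15.8-fold. The WT fold was 34.7 without E9.5 WT replicate 2 and 9.96 without E9.5 WT replicate 1. On the log2(FPKM + 1) scale this was a change of -3.51 (SE 0.42, adjusted p = 0.00884) in WT and -3.09 (SE 0.42, adjusted p = 0.0160) in cKO hearts with limma. *Has2* was the one gene of the 10 called in either stage comparison, where a call needs an adjusted p under 0.05 and a 1.5-fold change, and among all 10018 tested genes 48.1% were called in WT and 30.6% in cKO hearts. The antisense transcript *Has2os* overlaps *Has2*, and without a strand-marking library the reads of both cannot be told apart.

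Most of the called genes were lower at E9.5, and the median gene moved by -0.84 in WT and -0.64 in cKO hearts on the log2 scale. Relative to it, *Has2* stood at -2.67 in WT and at -2.45 in cKO hearts. After median-ratio scaling of the libraries, which sets the median gene near 0, the changes of *Has2* were -2.64 (adjusted p = 0.0189) and -2.56 (adjusted p = 0.0197). Without E8.5 WT replicate 1 the call in WT hearts was lost, with a change of -3.18 (adjusted p = 0.0577), while the genes called among all tested fell from 4823 to 31. In cKO hearts the call was lost without either E9.5 cKO library, with adjusted p = 0.0912 without replicate 1 and 0.0617 without replicate 2, and the changes were then -3.32 and -2.86. The calls over all genes were then 1 and 2, in place of 3062.

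In the cKO hearts of E8.5, *Has2* was lower in both libraries than in either WT library, at 0.495 of the WT mean. The log2 change was -0.95 (SE 0.42, unadjusted p = 0.0551, adjusted p = 0.590), so it did not pass the test. At E9.5 the genotypes overlapped, with a change of -0.53 (SE 0.42, adjusted p = 0.617) that turned to 0.04 without E9.5 WT replicate 2. Its seed match to the miR-30 family, shown above, thus sat in a gene with lower mean levels in cKO hearts at both stages, and neither difference passed.

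*Vcan* encodes versican, the large proteoglycan that binds hyaluronan, and *Hapln1* the link protein that fastens proteoglycans to it. The genes are neighbours on chromosome 13, *Hapln1* at chr13:89540636-89611832 and *Vcan* at chr13:89655310-89742512, with 43.5 kb between them. *Vcan* stood at 15.5 and 22.2 FPKM in WT and 19.5 and 23.0 in cKO libraries at E8.5, then 3.50 and 14.2 in WT and 36.6 and 10.3 in cKO libraries at E9.5. The E8.5 genotypes overlapped. At E9.5 a single library, cKO replicate 1, was the highest of all 8, and replicate 2 of the same group fell within the WT range.

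The mean of *Vcan* at E9.5 was 8.85 ± 7.56 FPKM (SD, n = 2) in WT and 23.4 ± 18.6 in cKO hearts, 2.65 times higher, but the log2 difference of 1.32 (SE 0.67) did not pass (limma, adjusted p = 0.388). Without cKO replicate 1 it was 0.45 and without WT replicate 1 it was 0.44, whereas it was 2.18 without cKO replicate 2 and 2.19 without WT replicate 2. Between the stages *Vcan* changed by -1.24 in WT (SE 0.67, adjusted p = 0.144), where both later libraries were below both earlier ones, and by -0.11 in cKO hearts (adjusted p = 0.913). The WT value was -0.36 without E9.5 WT replicate 1 and -2.12 without replicate 2, and after median-ratio scaling it was -0.31 with overlapping libraries. Neither change exceeded the spread between replicates.

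*Hapln1* stood at 22.3 and 15.1 FPKM in WT and 16.1 and 10.6 in cKO libraries at E8.5, then 6.91 and 19.6 in WT and 9.32 and 4.20 in cKO libraries at E9.5. The genotypes overlapped at both stages. In cKO hearts both E9.5 libraries were below both E8.5 libraries, with a mean 1.97 times lower and a change of -0.94 on the log2 scale (SE 0.52, adjusted p = 0.179), and after median-ratio scaling these libraries overlapped. The genotype differences were -0.46 at E8.5 (SE 0.52, adjusted p = 0.731) and -0.80 at E9.5 (SE 0.52, adjusted p = 0.513). The E9.5 difference was -0.11 without WT replicate 2 and -1.49 without WT replicate 1, and it was -1.29 and -0.31 without cKO replicates 1 and 2.

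In each genotype 5 of the 10 genes differed more than 2-fold between the E9.5 replicates. In WT hearts 6 were higher in replicate 2, *Has2*, *Vcan*, *Hapln1* and *Postn* among them, beside 43.6% of all tested genes. In cKO hearts 8 were higher in replicate 1, the same 4 among them, beside 63.3% of all tested genes. Over the 10 genes, the higher replicate exceeded the lower by a median of 2.02-fold in E9.5 WT and 2.04-fold in E9.5 cKO hearts, against 1.46 and 1.25 in the WT and cKO groups of E8.5. The same count and medians over all tested genes are not given here, so these spreads cannot be called particular to the 10 genes. *Erbb4*, at 2.08-fold in WT and 4.71-fold in cKO hearts, and *Nrg1*, at 2.17-fold in cKO hearts, are in the count and rest on few fragments. The share of FPKM in short loci was 22.4% and 18.4% in the E9.5 WT replicates and 54.5% and 18.3% in the cKO replicates, and its part in these splits was not tested.

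**Figure D2:**
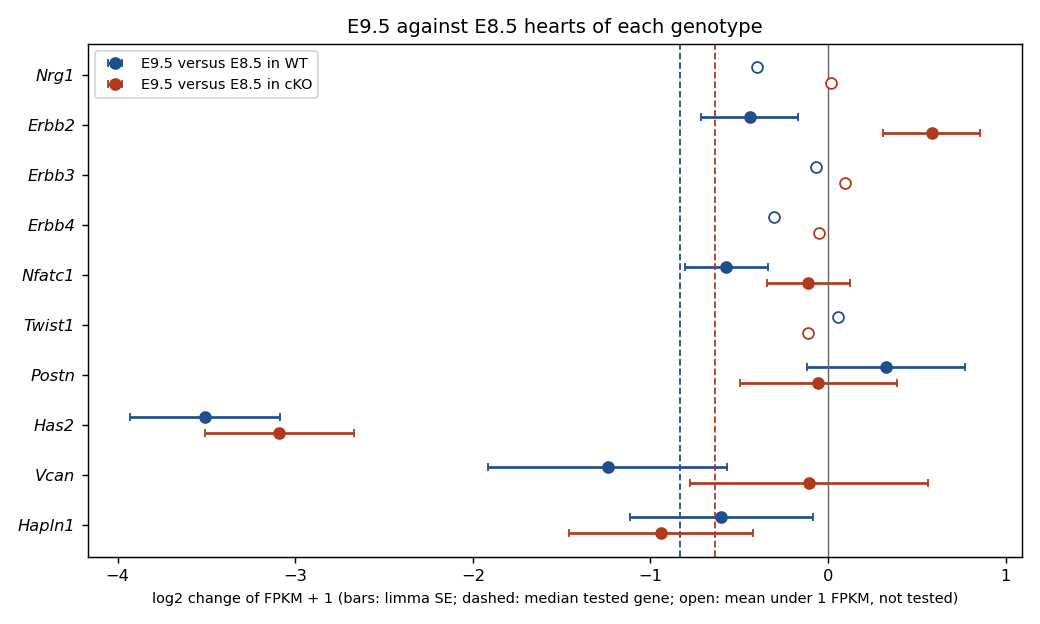
Log2 change of FPKM + 1 from E8.5 to E9.5 (horizontal axis) for each gene in WT (blue) and cKO (red) hearts, with limma standard errors as bars, open symbols for genes under the expression limit and dashed lines at the median tested gene. *Has2* lies at -3.51 and -3.09, far left of the dashed lines at -0.84 and -0.64.

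Neuregulin 1, encoded by *Nrg1*, is the endocardial ligand. It was at 1.32 and 0.629 FPKM in WT and 0.578 and 0.623 in cKO libraries at E8.5, then 0.407 and 0.549 in WT and 0.874 and 0.403 in cKO libraries at E9.5. E8.5 WT replicate 1 was the highest library, followed by E9.5 cKO replicate 1. The E8.5 cKO libraries were just below both WT libraries, and the E9.5 genotypes overlapped. The entry of *Nrg1* spans chr8:31818028-31918203, which is 9.24% of the RefSeq gene, so isoforms that start upstream may be counted in part, and its levels rest on roughly 12 to 36 fragments a library.

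*Erbb2* encodes the receptor that binds no neuregulin itself and serves as the partner of the other ERBB receptors. The gene (chr11:98412484-98437716) overlaps *Mien1* at its edge. It was at 7.92 and 9.16 FPKM in WT and 6.49 and 6.00 in cKO libraries at E8.5, then 7.20 and 5.0 in WT and 11.7 and 8.29 in cKO libraries at E9.5. The genotypes did not overlap at either stage, with the cKO libraries lower at E8.5 and higher at E9.5. The mean was 0.731 of WT at E8.5 and 1.64 times WT at E9.5.

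On the log2 scale *Erbb2* differed by -0.39 at E8.5 (SE 0.27, adjusted p = 0.617) and by 0.63 at E9.5 (SE 0.27, unadjusted p = 0.0498, adjusted p = 0.317). The difference between the cKO effects of the 2 stages was 1.02 (SE 0.39, unadjusted p = 0.0290, adjusted p = 0.689), so none of the 3 passed after adjustment. Without E9.5 cKO replicate 1 the E9.5 value was 0.41. After median-ratio scaling, the E8.5 libraries read 4.96 and 5.95 in WT and 5.05 and 5.01 in cKO hearts and overlapped, and the E9.5 libraries read 9.37 and 6.43 in WT and 14.8 and 12.6 in cKO hearts and stayed apart. The lower position at E8.5 therefore depended on the scaling, and the higher one at E9.5 did not.

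The change of *Erbb2* from E8.5 to E9.5 depended on the scaling as well. As deposited it was -0.44 in WT (SE 0.27, adjusted p = 0.191) and 0.58 in cKO hearts (SE 0.27, adjusted p = 0.127). After median-ratio scaling the WT value turned to 0.45 and the cKO value rose to 1.28, which passed (adjusted p = 0.0356), as it did with quantile normalization at 1.35 (adjusted p = 0.0431). Relative to the median gene of the deposited values, *Erbb2* stood 0.39 higher in WT and 1.22 higher in cKO hearts.

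**Figure D3:**
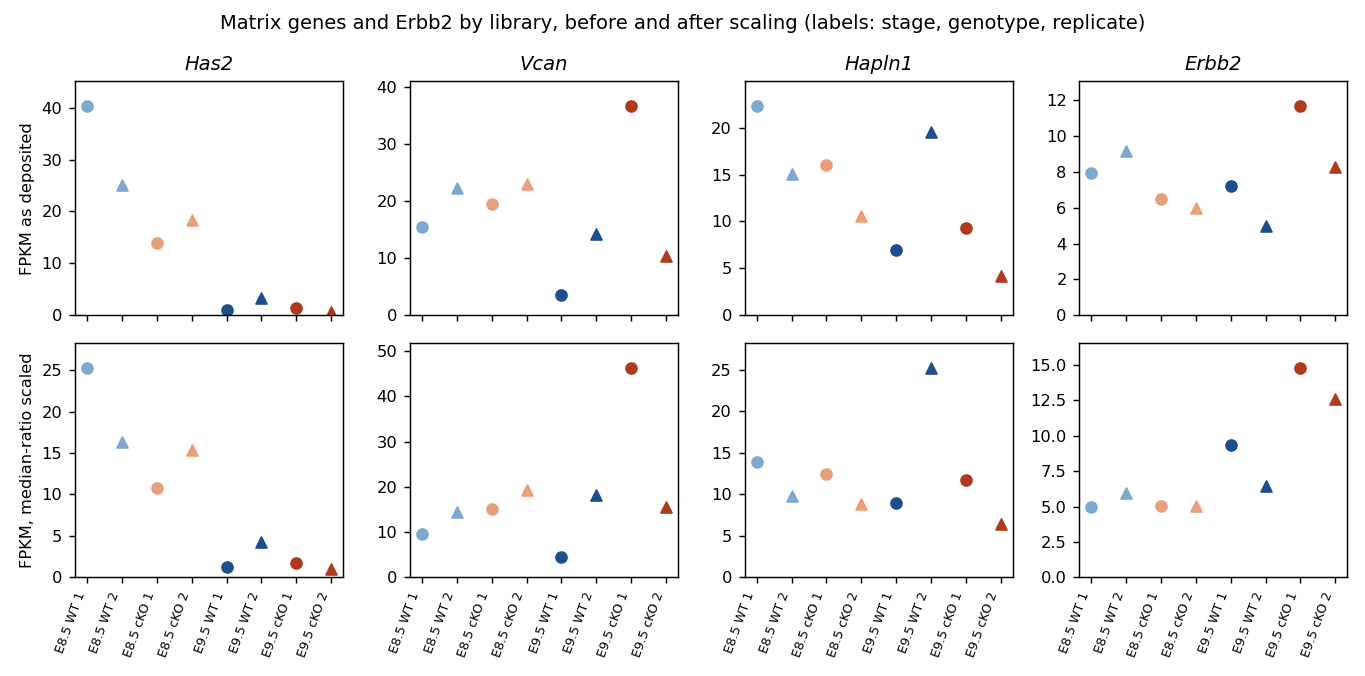
FPKM of *Has2*, *Vcan*, *Hapln1* and *Erbb2* by library, as deposited (upper panels) and after median-ratio scaling of the libraries (lower panels), with circles for replicate 1 and triangles for replicate 2. The fall of *Has2* remains after scaling, while *Erbb2* changes from lower in cKO hearts at E8.5 to overlapping genotypes, 4.96 and 5.95 against 5.05 and 5.01.

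ERBB3 binds neuregulin but has little kinase activity of its own, and ERBB4 binds it and signals in cardiomyocytes. *Erbb3* (chr10:128569368-128589501) was at 1.06 and 0.326 FPKM in WT and 0.247 and 0.182 in cKO libraries at E8.5, then 0.624 and 0.533 in WT and 0.276 and 0.315 in cKO libraries at E9.5. The cKO libraries were below both WT libraries of their stage in each case, also after median-ratio scaling, with means at 0.310 and 0.511 of WT. Without E8.5 WT replicate 1, the highest library, the E8.5 ratio was 0.658. *Erbb4* (chr1:68032187-69108059) was at 0.220 and 0.462 FPKM in WT and 0.557 and 0.409 in cKO libraries at E8.5, then 0.0544 and 0.113 in WT and 0.762 and 0.162 in cKO libraries at E9.5. Both E9.5 cKO libraries of *Erbb4* exceeded both WT libraries, by 5.51-fold in the mean, or 1.93-fold without cKO replicate 1. These were low levels, about 14 to 82 fragments a library for *Erbb3* and, as an upper estimate, 9 to 145 for *Erbb4*, and without the expression limit the genotype differences did not pass (limma, adjusted p = 0.590 and 0.761 for *Erbb3* and 0.824 and 0.601 for *Erbb4*). The words matching miR-26a-5p and miR-30 in the *Erbb4* UTR stand beside higher *Erbb4* in cKO hearts at E9.5. At E8.5 the genotypes overlapped as deposited. After median-ratio scaling both E8.5 cKO libraries, at 0.434 and 0.342, were above both WT libraries, at 0.138 and 0.300. The part of these words in the levels was not tested.

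NFATc1, encoded by *Nfatc1*, is the transcription factor that marks the endocardium and is needed for valve growth. The gene (chr18:80606205-80713071) was at 1.89 and 2.46 FPKM in WT and 1.92 and 1.75 in cKO libraries at E8.5, then 1.17 and 1.08 in WT and 1.98 and 1.31 in cKO libraries at E9.5. The E9.5 WT libraries were the lowest 2 of the 8. Both E9.5 cKO libraries were above them, 1.46-fold in the mean, with a log2 difference of 0.30 (SE 0.23, adjusted p = 0.599), and the E8.5 genotypes overlapped (-0.16, adjusted p = 0.795). The E9.5 difference was 0.12 without cKO replicate 1 and 0.49 without cKO replicate 2. By in situ hybridization at E9.5, a measure unlike whole-heart RNA, the study describes a signal of *Nfatc1* that looked weaker in cKO hearts. Over the day from E8.5 *Nfatc1* changed by -0.57 in WT (SE 0.23, adjusted p = 0.0719) and by -0.11 in cKO hearts (adjusted p = 0.730). The WT change passed when FPKM were rescaled to loci of at least 300 bp (-0.71, adjusted p = 0.0310) and was 0.05 after median-ratio scaling.

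Summed FPKM of the 11 endothelial and endocardial markers, 10 of which were above 1 FPKM in every library, moved the same way as *Nfatc1* at E9.5. The sums were 140 and 121 in WT and 228 and 190 in cKO hearts, and at E8.5 they were 211 and 230 in WT and 264 and 149 in cKO hearts. The marker sums did not overlap at E9.5 and overlapped at E8.5, as the *Nfatc1* levels did. Much of the E9.5 difference in the sum lay in *Egfl7*, with means of 43.7 FPKM in WT and 86.2 in cKO hearts. *Tek* and *Npr3* were lower in both cKO libraries, with means of 6.22 and 0.605 FPKM in WT against 3.98 and 0.345 in cKO hearts, and *Emcn* was lower in the mean, at 14.7 against 8.84. The part of these cells in the levels of *Nfatc1*, *Nrg1* and *Erbb2* was not tested.

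*Twist1* encodes a transcription factor of the cushion mesenchyme that also acts in neural crest. It was at 0.651 and 0.621 FPKM in WT and 0.330 and 0.391 in cKO libraries at E8.5, then 0.950 and 0.488 in WT and 0.247 and 0.268 in cKO libraries at E9.5 (chr12:33957671-33959831). Every cKO library was below both WT libraries of its stage, also after median-ratio scaling, with means at 0.567 of WT at E8.5 and 0.358 at E9.5. The values correspond to about 6 to 22 fragments a library, and without the expression limit the genotype differences did not pass (limma, adjusted p = 0.634 at E8.5 and 0.344 at E9.5). Of the 5 neural crest markers, *Foxd3* was listed at 0 in all 8 libraries, *Sox10*, *Tfap2a* and *Tfap2b* never exceeded 0.253 FPKM, and *Ets1*, which endothelium also expresses, made up nearly all of their sum. That sum was 5.84 and 4.23 FPKM in WT and 3.09 and 3.42 in cKO hearts at E8.5, and 4.32 and 3.29 in WT and 1.95 and 2.27 in cKO hearts at E9.5.

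Periostin, encoded by *Postn*, is a matrix protein of maturing valve mesenchyme. The gene (chr3:54361107-54391041) was at 1.05 and 0.925 FPKM in WT and 0.294 and 1.11 in cKO libraries at E8.5, then 0.616 and 2.84 in WT and 0.982 and 0.280 in cKO libraries at E9.5. Genotypes and stages overlapped throughout as deposited. After median-ratio scaling both E9.5 WT libraries, at 0.803 and 3.65, were above both E8.5 WT libraries, at 0.656 and 0.601. With a mean of 1.01 FPKM it passed the expression limit narrowly, and only through E9.5 WT, since the other 6 libraries averaged 0.774. Differences against that group are therefore given as a description. The largest in size was -0.64 in cKO against WT at E9.5, where E9.5 WT replicate 2 was the highest library. The cKO mean was 0.366 of the WT mean with all libraries and 1.02 of it without that library, so the difference rested on it. Without cKO replicate 2 the log2 difference was -0.33. Epicardial markers were also higher in WT at E9.5, with sums of 42.7 and 25.9 FPKM for 7 genes against 13.2 and 14.0 in cKO hearts, and their part in *Postn* and *Twist1* was not tested.

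Between genotypes, the counts for the 10 genes are set beside shares of the 10018 tested genes. Of the 10, *Nrg1*, *Erbb3*, *Erbb4* and *Twist1* lay under the expression limit and are not part of those shares. The same holds for the counts between stages. At E8.5 none of the 6 tested genes was called in cKO against WT, by limma or at an unadjusted p under 0.05, and among all tested genes 0.00998% were called. Both cKO libraries were below both WT libraries for 5 of the 10 genes, *Nrg1*, *Erbb2*, *Erbb3*, *Has2* and *Twist1*, as for 40.1% of tested genes, and above for 0, as for 2.54%. After median-ratio scaling the cKO libraries were below for 3, *Erbb3*, *Has2* and *Twist1*, beside 13.6% of tested genes, and above for *Erbb4* and *Vcan*, beside 12.4%. The median change of the 10 was -0.27, beside -0.28 for the median tested gene.

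At E9.5 none was called either, with *Erbb2* at an unadjusted p under 0.05, and 0.180% of all tested genes were called. Both cKO libraries were above both WT libraries for 3 genes, *Erbb2*, *Erbb4* and *Nfatc1*, beside 21.0% of tested genes, and below for *Erbb3* and *Twist1*, beside 31.1%. The same 5 were apart in the same directions after median-ratio scaling, when 26.2% of tested genes were above and 24.0% below. Their median change was -0.07, beside -0.07 for the median tested gene. For the difference between the cKO effects of the stages, 0.0399% of tested genes were called and none of the 10, with *Erbb2* at an unadjusted p under 0.05.

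**Figure D4:**
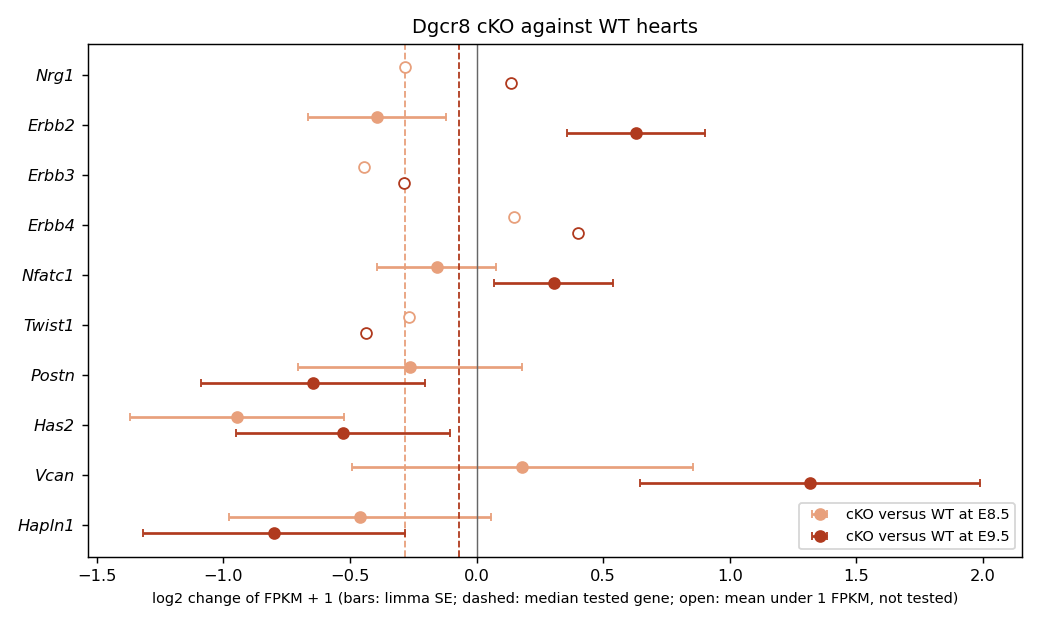
Log2 difference of FPKM + 1 between cKO and WT hearts (horizontal axis) for each gene at E8.5 (light) and E9.5 (dark), with limma standard errors as bars, open symbols for genes under the expression limit and dashed lines at the median tested gene. *Vcan* and *Erbb2* lie right of 0 at E9.5, at 1.32 and 0.63, and none of the tested differences passed after adjustment.

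Between stages, both E9.5 libraries were below both E8.5 libraries for 6 genes in WT, *Nrg1*, *Erbb2*, *Erbb4*, *Has2*, *Vcan* and *Nfatc1*, beside 80.1% of tested genes, and above for 0, beside 5.43%. In cKO hearts 3 were below, *Has2*, *Hapln1* and *Twist1*, beside 62.7%, and *Erbb2* and *Erbb3* were above, beside 7.05%. After median-ratio scaling the counts turned, and *Has2* alone was below in each genotype, beside 27.9% of tested genes in WT and 27.5% in cKO hearts. Above were *Erbb2*, *Erbb3*, *Twist1* and *Postn* in WT, beside 30.3%, and *Nrg1*, *Erbb2*, *Erbb3* and *Nfatc1* in cKO hearts, beside 26.8%. The stage and genotype comparisons share libraries and are not independent. With 2 libraries against 2, an exact two-sided permutation test of a single gene cannot go below p = 0.333.

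The wider gene lists give the surroundings of these genes. None of the 22 tested of 30 other cushion and valve genes was called between genotypes as deposited, and none of 14 tested of 26 other matrix genes or 18 tested of 32 other neuregulin and ERBB genes. Among cushion genes at E8.5 the lowest changes were *Tbx3* at -1.26 and *Hey1* at -0.93, and the highest *Sparc* at 0.46 and *Hey2* at 0.21. At E9.5 they were *Sox9*, a regulator of cushion mesenchyme, at -1.74 and *Snai1*, a repressor of cell adhesion, at -1.55, with *Tgfbr2* at 0.42 and *Eng* at 0.38 as the highest. The list's median was -0.18 at E8.5 and -0.27 at E9.5.

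Among the matrix genes, *Cd44*, a hyaluronan receptor, was at -0.83 and *Fn1*, fibronectin, at -0.71 in cKO against WT at E8.5, with *Tnc* at 0.07 and *Cspg4* at 0.05 as the highest. At E9.5 *Fbln2* was at -1.14 and *Adamts1*, a protease that cuts versican, at -0.59, while *Fbln1*, a versican-binding fibulin, was at 1.26 and *Cspg4* at 0.90. None of these passed after adjustment. The list's median was -0.13 at E8.5 and near 0 at E9.5 (-0.0029). In the neuregulin and ERBB list *Spry2* and *Dusp6*, feedback inhibitors of the pathway, were at -1.18 and -1.09 at E8.5 with *Hsp90ab1* at 0.35 and *Gab1* at 0.34, and at E9.5 *Hsp90ab1* was at -0.59, *Ptpn11* at -0.58, *Hbegf*, an ERBB ligand, at 0.83 and *Mapk3* at 0.80. Its medians were -0.21 and -0.11.

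From E8.5 to E9.5 the matrix list held calls in both directions. Among all tested genes 46.7% were called lower and 1.40% higher in WT hearts, and 28.5% and 2.05% in cKO hearts. *Hapln3*, a link protein like *Hapln1*, fell by 3.42 in WT and by 2.62 in cKO hearts, and *Ugdh*, which makes the sugar that hyaluronan is built from, fell by 0.99 and by 1.27. In WT hearts *Cd44* also fell, by 1.49, and *Tnc*, *Fbln2* and *Adamts1* rose, by 1.74, 1.58 and 0.81, which made 3 higher calls. The lower calls in WT were 4, the fourth being *Adamts9*, named after its value was seen, which reached the expression limit only through E8.5 WT, its highest group, with 0.980 FPKM on average in the other 6 libraries. In cKO hearts there were 2 lower calls and 3 higher ones, *Cspg4*, *Fbln1* and *Fn1*, which rose by 1.38, 1.25 and 1.21. The median of the list was 0.10 in WT and 0.30 in cKO hearts, above the median gene.

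Of the cushion list, 5 genes were called lower in WT hearts, led by *Gata5* at -1.71, *Tbx20* at -1.67 and *Bmpr1a* at -1.56, and 3 higher, *Sox9* at 1.58, *Sparc* at 1.39 and *Tgfbi* at 1.33. *Sox9* reached the expression limit only through E9.5 WT, its highest group, with 0.860 FPKM on average in the other 6 libraries, so its differences against that group are a description. In cKO hearts *Tbx20*, *Id1* and *Smad6* were called lower, at -1.71, -1.50 and -0.75, and *Eng* and *Tgfbi* higher, at 1.62 and 1.43. As deposited, the neuregulin and ERBB list had lower calls and no higher ones. There were 12 of 18 tested in WT, led by *Spry2* at -1.75, *Shc1* at -1.73 and *Grb2* at -1.49, the latter 2 being adaptors of the receptors, and 6 in cKO hearts, among them *Grb2* at -1.67 and *Adam10*, a sheddase, at -1.40. The medians of the neuregulin and ERBB list were -1.33 in WT and -0.68 in cKO hearts, and those of the cushion list -0.38 and -0.68. Relative to the median gene they were -0.49 and -0.04 for the neuregulin and ERBB list and 0.46 and -0.05 for the cushion list.

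Calls of the lists depended on the scaling. After median-ratio scaling all higher calls of the cushion and matrix lists held in both genotypes, apart from *Sox9* in WT, which is a description only. *Sparc* stood at 2.40 and *Tnc* at 2.31 in WT, and *Eng* at 2.37 and *Fbln1* at 2.02 in cKO hearts. Of the lower calls in the 3 lists, that of *Hapln3* alone held, at -2.53 in WT (adjusted p = 0.00958) and -1.98 in cKO hearts (adjusted p = 0.0171). *Hapln3* thus stood beside *Has2* as a cardiac jelly gene that fell between the stages on both scales. Calls that the scaling added between stages were *Hsp90ab1*, higher in WT hearts at 1.83 (adjusted p = 0.0391), which left the neuregulin and ERBB list with 1 higher and 0 lower calls there, and *Emilin1*, higher in cKO hearts at 1.39 (adjusted p = 0.0392). Over all tested genes the scaled values gave 293 higher and 65 lower calls in WT and 357 and 74 in cKO hearts. *Sox9* read 6.86 and 4.17 FPKM in WT and 0.906 and 0.901 in cKO hearts at E9.5 as deposited, and it alone of the 3 lists was past the threshold between genotypes after scaling, which for the reason given above is no test of the difference.

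Over the 8 libraries, after median-ratio scaling, the genes whose log2 levels followed the tested members most closely were *Cit* and *Mapre3* for *Erbb2* (Pearson r = 0.980 and 0.979), *Noc3l* and *Tspan12* for *Has2* (0.987 and 0.986) and *Lpp* and *Ssh2* for *Vcan* (0.989 and 0.967). For *Hapln1* they were *Stk26* and *Rspo3* (0.977 and 0.970), for *Nfatc1* *Dab2ip* and *Leng1* (0.982 and 0.980) and for *Postn* *Peg3* and *Alcam* (0.932 and 0.928). These values describe 8 libraries that share stage and genotype, and they are the highest of 10018 genes for each member.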

How the data were processed

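RNA-seq was performed on 8 heart libraries, 2 biological replicates for each of 4 groups, which the labels assign to stage, genotype and replicate number. Per the labels the libraries were made with a SMARTer Ultra Low RNA kit, whereas the study's methods name Smart-seq2 amplification, and neither is stated to mark the strand. Reads were mapped with BWA to mm9 per the submitters' processing notes. The deposited values are FPKM per gene, calculated by the authors with a program not given in the sources used here. The loci in the table matched GRCm38, since 89.6% of 23521 symbols started within 1000 bp of the RefSeq GRCm38.p6 start against 4.76% of 21005 for NCBIM37. Gene positions are therefore given on GRCm38, and UTR sites, which were read from the NCBIM37 genome, on NCBIM37.

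The table held 24930 entries and 0 per-sample columns were left out. Where a symbol had several entries (285 symbols), that with the largest average level was used, which left 24385 features. The 10018 genes averaging 1 FPKM or more were tested. FPKM are no counts, so log2(FPKM + 1) was fitted in R 4.3.3 by limma 3.58.1 as 4 group means in a single model, with a mean-variance trend and Benjamini-Hochberg adjustment over all 10018 genes, two-sided. Fold changes on this scale understate those of low genes. The p-values measure the spread between 2 libraries a group. The scripts were tested on simulated data. Depth was estimated from the FPKM times length of single fragments in genes with 1 transcript, and fragment numbers per gene are approximate and cover counting error only.

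The 10 genes and all gene lists were chosen with earlier results of these data known, and the fragment estimates, the seed search and the calls of the lists after median-ratio scaling were added after the values were seen. All 10 genes and *Dgcr8* are named. From each list, called genes are named (at most 3 in each direction), and otherwise the 2 highest and the 2 lowest changes, and for each tested member the 2 genes with the highest correlation. A gene of the lists that this rule names is not reported here. Alternatives were a pseudocount of 0.1, no filter, median-ratio scaling, quantile normalization, FPKM rescaled to loci of at least 300 bp, fits of 1 stage, a replicate block and leaving out each library. The replicate numbers did not pair the samples, with correlations of same-numbered deviations from -0.116 to 0.0168.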

Additional observations from a re-analysis of the deposited data

Results flagged for a closer look

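*Erbb2* is listed because its cKO effect differed between the stages at an unadjusted p under 0.05. For *Erbb2* the log2 difference between the effects was 1.02 (limma, SE 0.39, unadjusted p = 0.0290, adjusted p = 0.689 over 10018 genes), from -0.39 at E8.5 and 0.63 at E9.5. All 4 cKO libraries lay outside the WT range of their stage, below it at E8.5 and above it at E9.5. After median-ratio scaling the E8.5 genotypes overlapped. No single gene of the 10 passed this comparison after adjustment.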

How the results depend on the processing

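The fall of *Has2* kept its direction in every alternative run, and its call in each of those that used all 8 libraries. Leaving out 1 library took the members called between 0 and 1 in both stage comparisons. The libraries whose omission ended the *Has2* call were E8.5 WT replicate 1 in WT and either E9.5 cKO library in cKO hearts. With median-ratio scaling or quantile normalization 2 members were called in cKO hearts between stages, *Erbb2* being added, and with FPKM rescaled to loci of at least 300 bp 2 were called in WT hearts, *Nfatc1* being added.

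Counts over all genes depended on the scaling more than the members did. Between stages, 4823 calls in WT hearts (140 higher, 4683 lower) became 358 with median-ratio scaling (293 higher, 65 lower) and 103 with quantile normalization (75 higher, 28 lower), and 3062 in cKO hearts (205 higher, 2857 lower) became 431 (357 higher, 74 lower), 295 (244 higher, 51 lower) and 1188 without a filter. For cKO against WT, 1 call at E8.5 became 0 with a pseudocount of 0.1 or no filter, and 18 at E9.5 became 61 with median-ratio scaling, 32 with quantile normalization, 5 without a filter and 0 in the fit of 1 stage. For the difference between stages, 4 calls became 2 with a pseudocount of 0.1 and 0 without a filter or with loci of at least 300 bp. Leaving out 1 library gave 0 to 42 calls at E8.5, 1 to 88 at E9.5, 31 to 6042 between stages in WT, 1 to 3171 in cKO and 0 to 30 for the difference.

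With the replicate block the counts were 1 at E8.5, 12 at E9.5, 4668 and 2619 between stages and 0 for the difference, and no call of a member changed. The crossed replicate block, chosen after seeing the data, gave 4358 calls between stages in WT.

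The median of the members relative to the median gene, 0.42 in WT and 0.56 in cKO hearts between stages, became 0.20 in WT and 0.27 in cKO with median-ratio scaling, 0.33 in cKO with quantile normalization, and -0.054 and 0.11 without a filter. Of the 10 genes, 4 lie under 1 FPKM, where the added 1 compresses any change. When 1 library was left out it ran from 0.41 to 0.52 in WT and from 0.36 to 0.72 in cKO hearts, from -0.06 to 0.10 and from -0.04 to 0.19 for the cKO effect at E8.5 and E9.5, and from -0.04 to 0.33 for the difference.

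Uncalled changes that turned sign with median-ratio scaling and quantile normalization were, between stages in WT, *Erbb2* (0.45 and 0.53), *Hapln1* (0.35 and 0.37) and *Nfatc1* (0.046 and 0.19), between stages in cKO hearts, *Vcan* (0.63 and 0.65), *Nfatc1* (0.39 and 0.49) and *Postn* (0.21 and 0.29), and at E8.5 *Nfatc1* (0.059 and 0.028). Leaving out 1 library turned *Vcan* (-0.067 to 0.43) and *Postn* (-0.31 to 0.090) at E8.5, *Has2* at E9.5 (-1.10 to 0.044), *Hapln1* between stages in WT (-1.29 to 0.089), *Vcan* (-0.97 to 0.76), *Nfatc1* (-0.29 to 0.072) and *Postn* (-0.41 to 0.26) between stages in cKO hearts, and the differences of *Has2* (-0.15 to 0.99) and *Hapln1* (-1.03 to 0.35). The cause of these turns was not tested. With 2 libraries a group, differences of the size seen here between genotypes could not be told from the spread between replicates, and levels under 1 FPKM rest on few fragments.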
